A study of Mus musculus with 16 samples.

Results

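The glycolysis and hypoxia response genes are 40 genes listed by symbol: the enzymes that turn glucose into lactate, glucose and lactate carriers, the oxygen-regulated subunits of hypoxia-inducible factor (HIF) and their hydroxylases, and genes that HIF is known to switch on. All 40 symbols were found among the 20325 genes of the deposited expression table. The study measured polyadenylated RNA in mouse C3H10T1/2 cells, an embryonic mesenchymal line able to form fat, cartilage, bone and muscle, in 16 libraries, 2 for each of 8 histone H3 transgenes. Every group, the wild-type controls included, was transduced with a lentivirus for 2 days, put under 4 days of puromycin selection (1.5 µg/ml), and grown in DMEM with 10% FBS; no oxygen level is stated. The cells keep their own histone genes, so that each transgene is expressed on top of them. Of the 6 H3.3 groups, 1 carried wild-type H3.3, 1 G34W, 1 G34R and 1 K27R, and 2 carried 2 substitutions in the same tail, G34W K27R and G34W K36R. The labels write the last 2 as G34W;K27R and G34W;K36R. The remaining groups carried H3.1, either wild type or G34W. A substitution named without its histone is on H3.3. H3.3 is the variant laid down independently of replication and H3.1 the one laid down during replication. G34 lies close to K36 on the tail, and K27 and K36 are lysines whose methylation marks silent and transcribed chromatin, which an arginine in their place cannot carry. Whether the 2 libraries of a group are separate cultures is not stated in the labels. The p-values therefore cover the spread between libraries, which may be technical.

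Glycolysis splits a glucose molecule in a preparatory phase that spends ATP, from hexokinase to triose phosphate isomerase, and a payoff phase that returns it. The payoff phase runs from Gapdh through the enolases to pyruvate kinase, which makes pyruvate, and Ldha then reduces pyruvate to lactate. Pyruvate dehydrogenase kinases such as Pdk1 shut off pyruvate dehydrogenase, the mitochondrial enzyme that turns pyruvate into acetyl-CoA. When oxygen is plentiful the Egln prolyl hydroxylases mark the HIF alpha subunits, Hif1a and Epas1 (HIF-2α), for destruction by the von Hippel-Lindau ubiquitin ligase, and when oxygen falls the subunits persist, pair with Arnt and bind the hypoxia response element at many of the genes described here. The control is largely at the level of the protein, so mRNA of Hif1a or Epas1 does not measure HIF activity.

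The estimated depth was 26.02 to 49.1 M reads per library, and 3 reads corresponded to 2.27 to 3.74 in the deposited unit, a median-normalised expected count. Of 12 mesenchymal markers 11 were above this floor in every library, Nt5e being the exception, and their summed level was 466805 to 933324. Epcam and Krt18 of epithelium, Ptprc, Cd3e and Emr1 of blood and Myod1 of muscle were at or under the floor in all 16 libraries. Of the adipocyte list 4 of 8 genes were above the floor in every library, and the list summed to 22861 in G34W replicate 1 and 3365 in replicate 2, 12779.9 and 12689.9 in G34W K27R and 1728 to 4274 in the other 12 libraries. In bulk RNA, fewer cells of a type and less RNA per cell cannot be told apart. The 2 wild-type H3.3 libraries were averaged to 1 sample: over 2388 genes with whole reads their difference stayed within sampling noise (a chi-square of 0.961 per degree of freedom, p = 0.91), though not over all 11921 genes compared (1.23, p = 5.8e-64). Over the members, the median absolute log2 difference between the 2 libraries of a group was 0.61 in G34W, 0.40 in H3.1 G34W, 0.26 in wild-type H3.1 and 0.02 to 0.06 in the other 5 groups. In G34W Pfkfb3, Eno2, Epas1, Bnip3 and Ankrd37 lay more than 2-fold apart.

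Slc2a3, a glucose transporter, Egln3, a prolyl hydroxylase, and Car12, a carbonic anhydrase, were near 0 throughout, with highest values of 3.19, 1.94 and 2.82 and 16, 7 and 10 reads over all libraries. They did not reach the mean of 10 required for testing. The other 37 members were tested among 12670 genes with limma, and a gene is called where its p-value, adjusted over all genes by the Benjamini-Hochberg method, was under 0.05. Fold changes are on the scale of log2(value + 1), and ± after a fold change is the standard error of the fit. The fit uses 1 spread per gene for all groups. Its standard errors and p-values can understate the spread in G34W and the H3.1 groups, whose libraries lay further apart. They can overstate the spread between libraries in the other groups.

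The windows upstream of the start sites were searched for a known motif. Some members were listed because HIF is known to switch them on, so a higher share of its motif is partly built into the list. RefSeq windows of 250 bases before the start (build GRCm38.p6, while the deposited values were made on mm9) were found for 36 of the 40 members, not for Bnip3l, Epas1, Ndrg1 and Slc2a3, and gave 53 windows. The hypoxia response element core was searched as ACGTG and as GCGTG on both strands. ACGTG was in 25 windows (47.2%), against 16.6% of 32851 windows in the whole RefSeq table and 21.2% of 11535 windows of tested genes. Windows of 1 gene can overlap, so a match may be counted more than once. By gene, ACGTG was in 21 of the 36 members with a window. GCGTG was in 28 windows (52.8%), against 28.2% and 44.0%. ACGTG overlaps the palindrome CACGTG, present in 9.43% of the members' windows, 6.02% of all and 8.24% of those of tested genes. The median GC content was 60.4%, against 52.4% and 59.6%. A match is a stretch of letters and not a bound site. Of the members printed below, Pdk1 has a further window (chr2:71874654-71874903), not printed, with 0 matches of either core. The windows of 5 members on which the results below turn are printed 5′ to 3′ on the strand of the gene, matches in capitals (CACGT and CACGC are the same letters read on the opposite strand): Car9 (chr4:43506776-43507025 on the plus strand), Pdk1 (chr2:71872974-71873223 on the plus strand, the upstream one of its 2 windows) and Higd1a (chr9:121857797-121858046 on the minus strand), each lower in both K27R and wild-type H3.1 than in wild-type H3.3, and Hk2 (chr6:82774455-82774704 on the minus strand) and Ero1l (listed as Ero1a, chr14:45318573-45318822 on the minus strand), each higher in both G34W K36R than in G34W and wild-type H3.1 than in wild-type H3.3.
Car9: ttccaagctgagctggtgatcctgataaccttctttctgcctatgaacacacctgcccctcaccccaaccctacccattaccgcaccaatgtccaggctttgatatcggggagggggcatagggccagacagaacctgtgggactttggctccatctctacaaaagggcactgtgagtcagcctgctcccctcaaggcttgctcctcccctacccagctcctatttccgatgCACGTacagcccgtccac
Pdk1: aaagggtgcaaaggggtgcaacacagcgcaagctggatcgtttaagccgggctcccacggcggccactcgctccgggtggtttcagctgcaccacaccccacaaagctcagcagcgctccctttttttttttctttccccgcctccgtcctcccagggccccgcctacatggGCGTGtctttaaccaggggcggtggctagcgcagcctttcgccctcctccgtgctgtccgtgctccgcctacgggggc
Higd1a: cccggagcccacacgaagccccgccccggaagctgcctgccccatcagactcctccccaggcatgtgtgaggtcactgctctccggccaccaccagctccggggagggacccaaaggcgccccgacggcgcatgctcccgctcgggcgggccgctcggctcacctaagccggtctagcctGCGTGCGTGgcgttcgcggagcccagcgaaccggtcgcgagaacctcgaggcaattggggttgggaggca
Hk2: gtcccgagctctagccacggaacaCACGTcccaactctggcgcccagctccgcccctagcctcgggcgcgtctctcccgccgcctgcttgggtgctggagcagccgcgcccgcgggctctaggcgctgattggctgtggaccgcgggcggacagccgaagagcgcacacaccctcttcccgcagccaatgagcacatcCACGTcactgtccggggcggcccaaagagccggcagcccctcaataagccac
Ero1l: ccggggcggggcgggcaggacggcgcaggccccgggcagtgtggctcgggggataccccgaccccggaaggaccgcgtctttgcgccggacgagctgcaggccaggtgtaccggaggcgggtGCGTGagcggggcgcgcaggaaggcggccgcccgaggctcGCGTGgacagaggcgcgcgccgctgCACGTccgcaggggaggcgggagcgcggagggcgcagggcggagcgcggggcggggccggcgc

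Across the 8 groups 27 of the 37 members were called by limma's F-test (73.0%), beside 66.6% of all tested genes, so the members differed between groups about as often as genes in general. The range between the highest and the lowest group mean had a median of 1.37 on the log2 scale over the members and 1.14 over all genes. By role, 9 of 11 genes of the preparatory phase, 3 of 6 of the payoff phase and lactate formation, Pdk1, 2 of 3 HIF subunits and hydroxylases and all 3 acid and vessel genes were called. Epas1 had the widest range (adjusted p = 1.5e-06), followed by Car9 (adjusted p = 5.0e-05), Adm and Hk2. 10 members were not called, namely Slc16a3, Eno2, Hk1, Eno1, Ldha, P4ha2, Egln1, Ddit4, Pfkfb3 and Bnip3l. The 2 libraries of wild-type H3.3, G34R, K27R, G34W K27R and G34W K36R had a chi-square per degree of freedom of 0.961 to 1.46 over genes with whole reads, against 37.0 to 54.8 in the other 3 groups. With each of these 5 close pairs counted as 1 sample, 4 members were called (Epas1, Car9, Adm and Hk2), beside 8.13% of all genes.

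**Figure D1:**
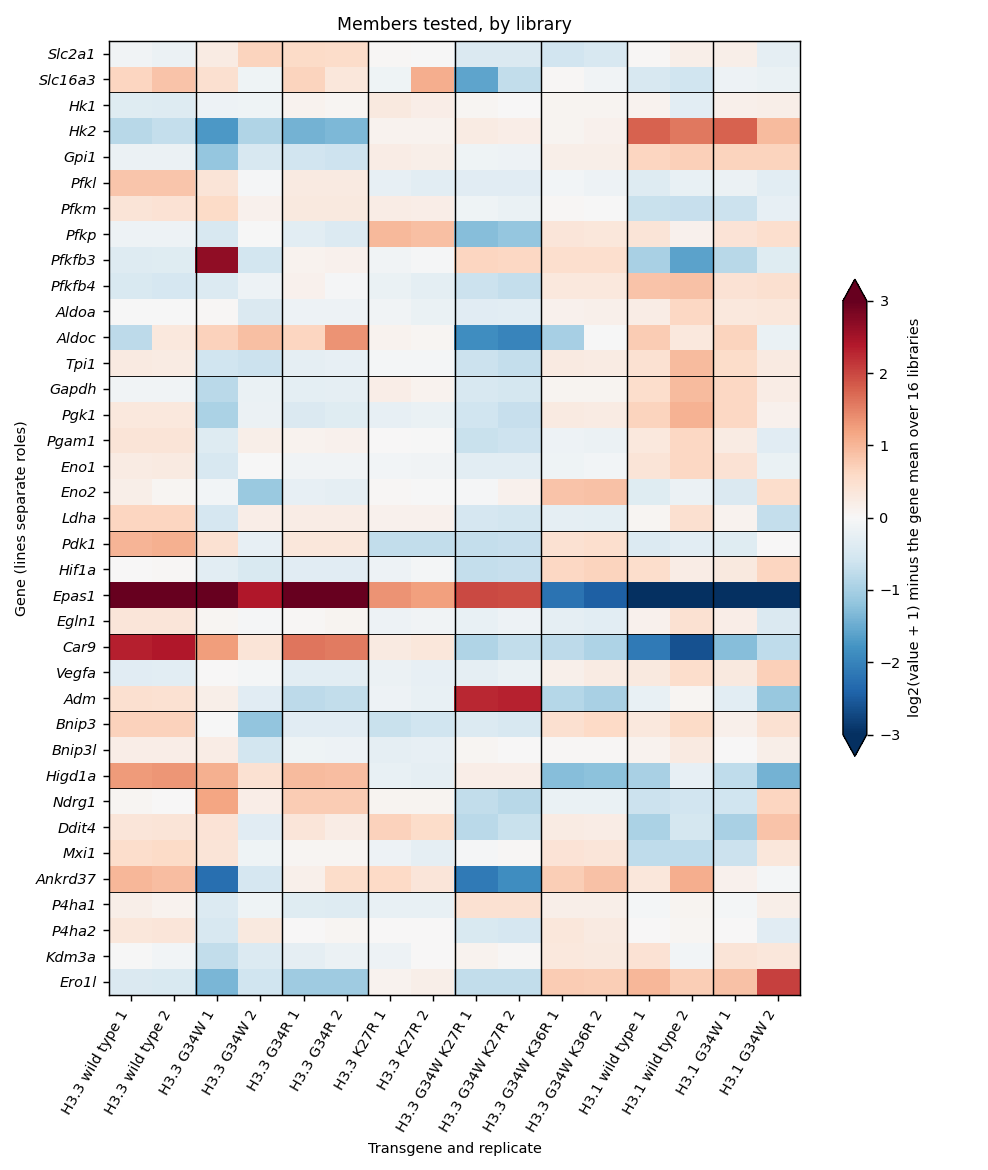
Heat map of the 37 tested members (rows, ordered by role) in the 16 libraries (columns, by transgene). Colour is the log2(value + 1) of a library minus the gene's mean over the libraries, so that blue and red compare libraries within a gene and not genes with each other. The Epas1 row has its lowest values in the 4 H3.1 libraries, and the 2 columns of G34W differ from each other.

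In G34W K36R against G34W the HIF subunits went in opposite directions. Epas1, the subunit known from endothelium, fat and other specialised cells, was at 5371 and 5247 in wild-type H3.3, 13520.4 and 3016 in G34W, 5631 and 5567 in G34R, 1439 and 1334 in K27R, 2248 and 2215 in G34W K27R and 120.3 and 103 in G34W K36R. In the H3.1 libraries it was at 9.86 and 14.2 in wild-type H3.1 and 11.4 and 11.6 in H3.1 G34W. The values thus span from 9.86 to 13520.4, the 4 H3.1 libraries lie lowest, the 2 of G34W K36R next, and these 6 lie below the other 10. Epas1 fell in wild-type H3.1 against wild-type H3.3 (log2 fold change -8.69 ± 0.62, adjusted p = 1.9e-05) and in G34W K36R against G34W (log2 fold change -5.83 ± 0.51, adjusted p = 4.7e-05). Of the members called in those 2 comparisons, it remained called in both with the close pairs counted as 1 sample (adjusted p = 0.00354 and 0.0251). The 2 libraries of G34W differed by more than 2-fold, and replicate 1, the higher, also had the highest adipocyte list; whether adipocyte-like cells contribute was not tested. Adipoq and Plin1, defining markers of fat, were at 4082 and 825 in that library, at 7.65 and 0 in replicate 2, while in wild-type H3.3 Adipoq was at 19.4 and 19.4 and Plin1 at 2.90 and 3.87.

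Hif1a, the broadly expressed subunit, was at 7471 and 7581 in wild-type H3.3, 5903 and 5401 in G34W, 5822 and 5777 in G34R, 6639 and 7119 in K27R, 4512 and 4567 in G34W K27R and 11361 and 11759.6 in G34W K36R. With H3.1 transgenes its values were 10617 and 8598 in wild-type H3.1 and 9062 and 11467 in H3.1 G34W. It was lowest in G34W K27R and highest, with no overlap with the other H3.3 groups, in G34W K36R. Hif1a rose in G34W K36R against G34W (log2 fold change 1.03 ± 0.15, adjusted p = 8.0e-04) and fell in G34W K27R against K27R (log2 fold change -0.60 ± 0.15, adjusted p = 0.014). Between the unmutated transgenes, where Epas1 fell, Hif1a was not called (log2 fold change 0.34 ± 0.18, adjusted p = 0.164). Egln1, the main prolyl hydroxylase of HIF, was at 3289.8 and 3309 in wild-type H3.3 and 1903 to 3538 elsewhere, and was called in no comparison.

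**Figure D2:**
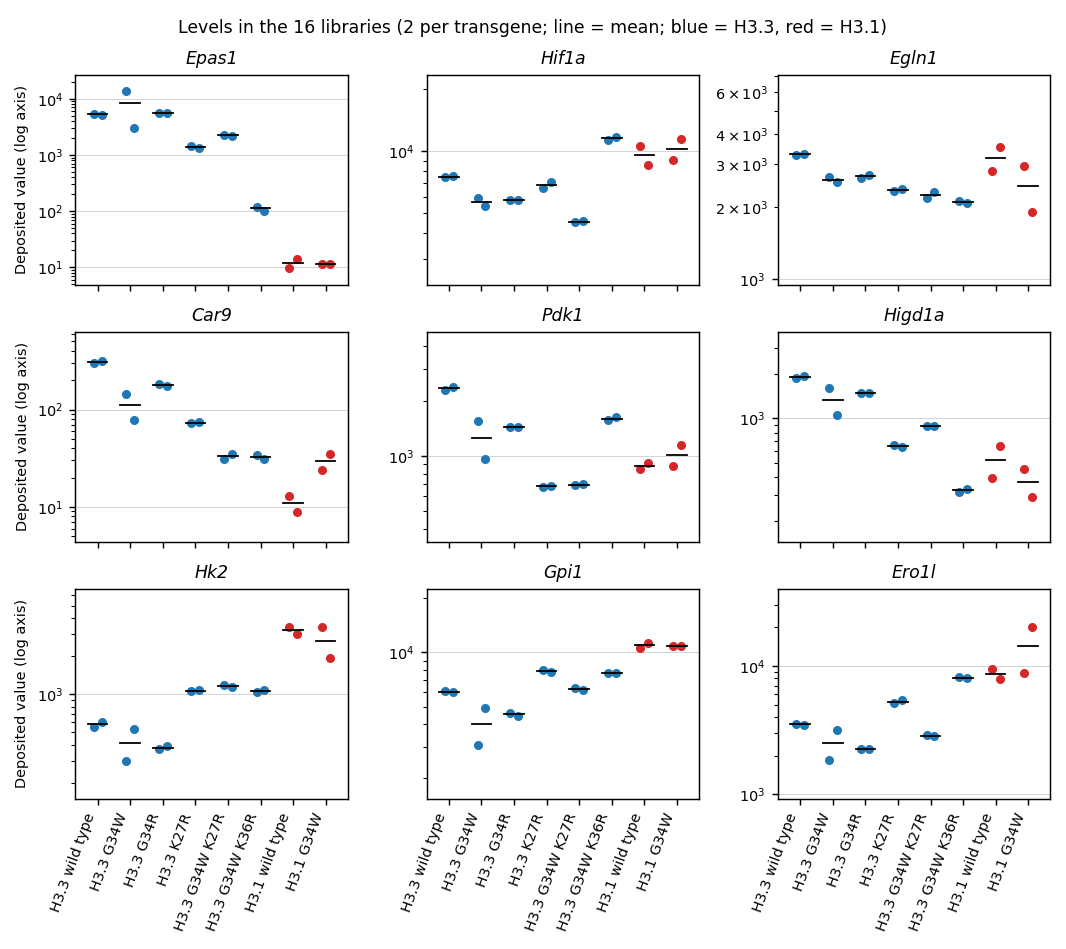
Values of Epas1, Hif1a, Egln1, Car9, Pdk1, Higd1a, Hk2, Gpi1 and Ero1l in each library (points, log axis, median-normalised expected counts) by transgene, H3.3 groups in blue and H3.1 groups in red. Horizontal bars mark the mean of the 2 libraries. Epas1, Car9, Pdk1 and Higd1a are higher in wild-type H3.3 than in either H3.1 group, while Hk2, Gpi1 and Ero1l are lower.

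Car9, a membrane carbonic anhydrase that handles the acid glycolysis produces and is widely used as a marker of HIF activity, was highest in wild-type H3.3. It was at 303 and 316 in wild-type H3.3, 144 and 77.6 in G34W, 183 and 176 in G34R, 72.3 and 74.8 in K27R, 31.1 and 35.0 in G34W K27R and 34.2 and 30.8 in G34W K36R. The H3.1 groups had 12.9 and 8.79 in wild-type H3.1 and 23.9 and 34.7 in H3.1 G34W. Both wild-type libraries lie above every other library, with G34R and G34W next and wild-type H3.1 lowest. Car9 fell in 4 comparisons: in wild-type H3.1 (log2 fold change -4.73 ± 0.41, adjusted p = 5.1e-05) and in K27R (log2 fold change -2.06 ± 0.41, adjusted p = 0.0271) against wild-type H3.3, in G34W K36R against G34W (log2 fold change -1.67 ± 0.34, adjusted p = 0.00512), and in G34W K27R against K27R (log2 fold change -1.13 ± 0.34, adjusted p = 0.0329). The first and second of these share the wild-type H3.3 libraries. With close pairs as 1 sample the call between the unmutated transgenes was kept (adjusted p = 0.0130) and the others were lost. Against wild-type H3.3 the log2 fold change in G34W was -1.54 ± 0.41 (adjusted p = 0.12), not called.

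Vegfa, the growth factor that draws in blood vessels, was highest in the 4 H3.1 libraries, followed by G34W K36R. It was at 1857 and 1915 in wild-type H3.3, 2399 and 2279 in G34W, 1887 and 1907 in G34R, 2109 and 1987 in K27R, 1969 and 2069 in G34W K27R and 2616 and 2825 in G34W K36R. On H3.1 the values were 2898 and 3403 in wild-type H3.1 and 2881 and 3888 in H3.1 G34W. Vegfa rose in wild-type H3.1 against wild-type H3.3 (log2 fold change 0.74 ± 0.18, adjusted p = 0.0121), a call lost under quantile normalization and with only the compared groups. It passed the test in no other comparison. Adm, which encodes the vasodilator peptide adrenomedullin, stood out in a single group. It was at 1764 and 1738 in wild-type H3.3, 1421 and 995 in G34W, 725 and 753 in G34R, 1135 and 1072 in K27R, 6036 and 6245 in G34W K27R and 697 and 639.8 in G34W K36R, and at 1083 and 1308 in wild-type H3.1 and 1009 and 569 in H3.1 G34W. Both G34W K27R libraries lie far above the other 14. Adm rose there against K27R (log2 fold change 2.48 ± 0.25, adjusted p = 1.2e-04) and fell in G34W K36R against G34W (log2 fold change -0.83 ± 0.25, adjusted p = 0.0289).

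Among the carriers, the glucose transporter Slc2a1 was at 2159.6 and 2064 in wild-type H3.3, 2734 and 3687 in G34W, 3482 and 3417 in G34R, 2397 and 2302 in K27R, 1725 and 1725 in G34W K27R and 1553 and 1661 in G34W K36R. Under H3.1 it stood at 2398 and 2604 in wild-type H3.1 and 2642 and 1912 in H3.1 G34W. The lowest values were those of G34W K36R and G34W K27R and the highest those of G34R and G34W replicate 2. Slc2a1 fell in G34W K36R against G34W (log2 fold change -0.98 ± 0.17, adjusted p = 0.00265). The lactate exporter Slc16a3 was low, at 4.44 to 33.7, and fell in G34W K27R against K27R (4.44 and 8.76 against 13.8 and 33.7; log2 fold change -1.64 ± 0.47, adjusted p = 0.0289), a call lost under quantile normalization.

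In the preparatory phase the hexokinases trap glucose in the cell, and of these Hk2 was called and Hk1 was not. Hk2, the inducible isoform, was at 555 and 602 in wild-type H3.3, 300.3 and 531 in G34W, 369 and 392 in G34R, 1068 and 1071 in K27R, 1176 and 1144 in G34W K27R and 1049.7 and 1086 in G34W K36R. In the H3.1 libraries it was at 3391 and 2996 in wild-type H3.1 and 3364 and 1915 in H3.1 G34W. All 4 H3.1 libraries lie above all 12 H3.3 libraries, and G34W and G34R lie lowest. Hk2 rose in wild-type H3.1 against wild-type H3.3 (log2 fold change 2.46 ± 0.34, adjusted p = 6.7e-04; adjusted p = 0.0320 with close pairs as 1 sample) and in G34W K36R against G34W (log2 fold change 1.42 ± 0.28, adjusted p = 0.00452). Hk1, the constitutive isoform, ranged from 4701 to 7536 over the 16 libraries and was called in no comparison.

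Gpi1, glucose-6-phosphate isomerase, was at 6084 and 6044 in wild-type H3.3, 3082 and 4916 in G34W, 4621 and 4446 in G34R, 7996 and 7778 in K27R, 6312 and 6181 in G34W K27R and 7727 and 7678 in G34W K36R. With H3.1 transgenes its values were 10635 and 11288 in wild-type H3.1 and 10842 and 10868 in H3.1 G34W. It was lowest in G34W and G34R and highest, without overlap, in the 4 H3.1 libraries. Gpi1 rose in G34W K36R against G34W (log2 fold change 0.98 ± 0.18, adjusted p = 0.00321) and in wild-type H3.1 against wild-type H3.3 (log2 fold change 0.85 ± 0.22, adjusted p = 0.015, a call lost under quantile normalization). The 3 phosphofructokinase genes, which encode the subunits of the committed step, did not move together. Pfkl, the liver-type subunit, was at 7046 and 7055 in wild-type H3.3, above all other libraries (3052 to 5206), and fell in wild-type H3.1 (log2 fold change -1.13 ± 0.18, adjusted p = 0.00128) and in K27R (log2 fold change -1.11 ± 0.18, adjusted p = 0.00876) against it. Pfkm, the muscle-type subunit, was at 1667 and 1650.5 in wild-type H3.1 against 3446 and 3565 in wild-type H3.3 (log2 fold change -1.08 ± 0.20, adjusted p = 0.00321). Pfkp, the platelet-type subunit, was at 2561 and 2571 in wild-type H3.3, 2032 and 2832 in G34W, 2292 and 2145 in G34R, 5625 and 5315 in K27R, 1169.6 and 1279 in G34W K27R and 3669 and 3635 in G34W K36R, and at 3714 and 3100.5 in wild-type H3.1 and 3788 and 4065 in H3.1 G34W. It was highest in K27R and lowest in G34W K27R, and rose in K27R against wild-type H3.3 (log2 fold change 1.09 ± 0.20, adjusted p = 0.016).

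Pfkfb3 and Pfkfb4 make and break the fructose bisphosphate signal that activates phosphofructokinase. Pfkfb3 was at 4860.2 and 527 in the 2 G34W libraries, and 253 to 1204 in the other 14; the high library is the one with the highest adipocyte list, and whether those cells contribute was not tested. Pfkfb4 was at 230.4 and 223 in wild-type H3.3, 236 and 282 in G34W, 395 and 394 in G34W K36R and 569 and 580.1 in wild-type H3.1. It rose in wild-type H3.1 against wild-type H3.3 (log2 fold change 1.34 ± 0.19, adjusted p = 7.1e-04) and in G34W K36R against G34W (log2 fold change 0.61 ± 0.15, adjusted p = 0.014). Of the aldolases, Aldoa at 13202 to 27362 was called in the F-test alone, and Aldoc was near the floor at 1.95 to 29.0. Tpi1, triose phosphate isomerase, was at 7205 and 7058 in G34W and 13311 and 13052 in G34W K36R, a rise (log2 fold change 0.89 ± 0.17, adjusted p = 0.00342), and at 7019 and 6631 in G34W K27R against 10479.8 and 10533 in K27R, a fall (log2 fold change -0.62 ± 0.17, adjusted p = 0.02).

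In the payoff phase, Gapdh, Pgam1, Eno1 and Ldha have near-identical processed copies in the genome with which RSEM may have split reads, as has Tpi1 above, so their values are less certain. Ldha, lactate dehydrogenase A, was at 40776 and 40730.5 in wild-type H3.3, 18258 and 29951 in G34W, 30020.5 and 30112 in G34R, 28377 and 28408 in K27R, 18386 and 17739 in G34W K27R and 21361 and 21015 in G34W K36R, and at 27054 and 36329.9 in wild-type H3.1 and 27704 and 15832 in H3.1 G34W. Both wild-type H3.3 libraries lie above the other 14, and Ldha was called in no comparison. Gapdh was at 77469 and 103413 in wild-type H3.1 against 49876 and 50120.4 in wild-type H3.3 and rose there (log2 fold change 0.84 ± 0.28, adjusted p = 0.0413), a call lost under quantile normalization and without any filter on low values. Pgk1, the first ATP-yielding enzyme, rose in G34W K36R (31822 and 31674) against G34W (13784 and 23572; log2 fold change 0.82 ± 0.25, adjusted p = 0.0331). Eno2, the neuronal enolase and a known hypoxia target, rose in the same comparison (749 and 762 against 390.3 and 188; log2 fold change 1.48 ± 0.35, adjusted p = 0.0101). Pgam1 and Eno1 were called in no comparison between 2 groups.

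Pdk1, the kinase that shuts off pyruvate dehydrogenase, was at 2297 and 2397 in wild-type H3.3, 1555 and 961 in G34W, 1434 and 1436 in G34R, 678 and 683 in K27R, 694 and 698 in G34W K27R and 1573 and 1624 in G34W K36R. The H3.1 groups had 852 and 916 in wild-type H3.1 and 882 and 1154 in H3.1 G34W. Both wild-type H3.3 libraries are the highest, and K27R with G34W K27R the lowest. Pdk1 fell in K27R (log2 fold change -1.78 ± 0.25, adjusted p = 0.00467) and in wild-type H3.1 (log2 fold change -1.41 ± 0.25, adjusted p = 0.00246), both against wild-type H3.3. It was the 1 call between K27R and wild-type H3.3 that was kept without each library in turn. Pdk4, another kinase of the same family and no member, was at 168 and 180.2 in wild-type H3.3, 489 and 469 in K27R and 4464 and 3585 in wild-type H3.1, and rose in both comparisons (log2 fold change 1.45 ± 0.26, adjusted p = 0.0153, and 4.51 ± 0.26, adjusted p = 4.3e-06). The 2 kinase genes were thus called in opposite directions in both. Of their relatives, Pdk2 fell and Pdk3 rose in wild-type H3.1 against wild-type H3.3, and neither was called in K27R.

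Of the mitochondrial genes, Higd1a, an inner-membrane protein that adjusts respiratory complexes in hypoxia, was at 1878 and 1939.6 in wild-type H3.3, 1613 and 1052 in G34W, 1481 and 1474 in G34R, 658 and 643 in K27R, 890.3 and 891 in G34W K27R and 317 and 329.8 in G34W K36R. On H3.1 the values were 393 and 651 in wild-type H3.1 and 452 and 290.0 in H3.1 G34W. The 2 wild-type libraries of H3.3 are again the highest, while G34W K36R and both H3.1 groups lie lowest, wild-type H3.1 replicate 2 reaching the level of K27R. Higd1a fell in G34W K36R against G34W (log2 fold change -2.01 ± 0.28, adjusted p = 7.0e-04), and in wild-type H3.1 (log2 fold change -1.91 ± 0.34, adjusted p = 0.00244) and K27R (log2 fold change -1.55 ± 0.34, adjusted p = 0.0401) against wild-type H3.3. Bnip3, a receptor for mitophagy, was at 2283 and 2281 in wild-type H3.3, 1400.3 and 623 in G34W, 1117 and 1121 in G34R, 893 and 936 in K27R, 1054 and 1015 in G34W K27R and 1961 and 2124 in G34W K36R, and at 1766 and 2097 in wild-type H3.1 and 1571 and 1936 in H3.1 G34W. Its highest H3.3 values are those of wild type and G34W K36R, and it rose in G34W K36R against G34W (log2 fold change 1.13 ± 0.29, adjusted p = 0.0158). Its relative Bnip3l was called in no comparison.

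Ankrd37, a small ankyrin repeat gene induced by HIF, was at 162 and 153 in wild-type H3.3, 15.96 and 55.8 in G34W, 89.5 and 118 in G34R, 123 and 103 in K27R, 17.7 and 21.4 in G34W K27R and 135 and 149 in G34W K36R. Under H3.1 it stood at 102 and 171 in wild-type H3.1 and 88.1 and 77.0 in H3.1 G34W. G34W and G34W K27R are lowest and overlap each other but no other group. Ankrd37 rose in G34W K36R against G34W (log2 fold change 2.20 ± 0.48, adjusted p = 0.00766) and fell in G34W K27R against K27R (log2 fold change -2.47 ± 0.48, adjusted p = 0.00464). Mxi1, an antagonist of MYC, was at 467 and 464 in wild-type H3.1 against 1136 and 1175 in wild-type H3.3 and fell there (log2 fold change -1.31 ± 0.33, adjusted p = 0.0127). Ndrg1, a stress-response gene, was called in the F-test alone, and Ddit4, an inhibitor of mTOR signalling, in no test. Both had 1 high H3.1 G34W library, replicate 2 (4790.3 and 11226 for Ndrg1 and 823 and 2900.5 for Ddit4 in replicates 1 and 2).

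The matrix, chromatin and secretory enzymes complete the list. Ero1l, which oxidises the folding machinery of the endoplasmic reticulum, was at 3529.7 and 3465 in wild-type H3.3, 1850.2 and 3151 in G34W, 2262 and 2270.0 in G34R, 5146 and 5396 in K27R, 2881 and 2858 in G34W K27R and 8133 and 8021 in G34W K36R. In the H3.1 libraries it was at 9466 and 7967 in wild-type H3.1 and 8727 and 19907 in H3.1 G34W. G34W K36R lies above all other H3.3 libraries and within the range of the H3.1 libraries, and G34R and G34W replicate 1 lie lowest. Ero1l rose in G34W K36R against G34W (log2 fold change 1.74 ± 0.33, adjusted p = 0.0039) and in wild-type H3.1 against wild-type H3.3 (log2 fold change 1.31 ± 0.41, adjusted p = 0.0322, a call lost under quantile normalization). P4ha1, a collagen prolyl hydroxylase, was at 6168 and 5908 in wild-type H3.3, 4116 and 4975 in G34W, 4252 and 4208 in G34R, 4688 and 4686 in K27R, 7513 and 7538 in G34W K27R and 6130.1 and 6148 in G34W K36R, and at 5267 and 5815 in wild-type H3.1 and 5271 and 6135 in H3.1 G34W. Its 2 highest libraries are those of G34W K27R, and it rose there against K27R (log2 fold change 0.68 ± 0.13, adjusted p = 0.00365). Kdm3a, a histone demethylase that HIF induces, rose in G34W K36R against G34W (2336 and 2328 against 1129 and 1419; log2 fold change 0.88 ± 0.17, adjusted p = 0.00393), and P4ha2 was called in no comparison.

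K36R added to the G34W tail gave the most calls. In G34W K36R against G34W, 18 of 37 members were called (48.6%), beside 30.6% of all genes. Of these 13 rose (35.1% of members, beside 14.4% of all genes) and 5 fell (13.5%, beside 16.2%). The 13 were Hk2, Gpi1, Pfkp, Pfkfb4 and Tpi1 of the preparatory phase, Pgk1 and Eno2 of the payoff phase, and Hif1a, Bnip3, Ankrd37, Kdm3a, P4ha1 and Ero1l. The 5 were Epas1, Higd1a, Car9, Slc2a1 and Adm, so the glucose carrier and the acid and vessel genes that passed went the other way from the enzymes that passed. The median log2 fold change was 0.22 over the members and -0.03 over all genes. Of the 18 calls 10 were kept without each library in turn; the other 8 were lost without G34W K36R replicate 2 (adjusted p up to 0.175), all but Ankrd37 also without its replicate 1, Adm, Pfkp, P4ha1 and Pgk1 without G34W replicate 1, and Pgk1 without any 1 library of G34R, K27R or G34W K27R. Epas1 alone was kept with close pairs as 1 sample (1.04% of all genes called). The count was 11 without replicate 1 of G34W K36R, 10 without its replicate 2 and 24 without G34W replicate 2. It was 5 with only these 2 groups in the fit (Ero1l, Hif1a, Tpi1, Epas1 and Higd1a). The share of all genes called is not given for these counts other than with close pairs as 1 sample. The 2 G34W K36R libraries and the 4 H3.1 libraries were also the deeper ones, at 34.8 to 49.1 M reads against 26.02 to 33.8 M in the other 10, and the mesenchymal list summed to 933324 and 919508 in G34W K36R against 472914 and 706867 in G34W. The endothelial list summed to 414 and 359 against 885 and 3254, the muscle list to 112 and 115 against 413 and 424 and the adipocyte list to 2191 and 2371 against 22861 and 3365. The part of any of these in the results was not tested.

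**Figure D3:**
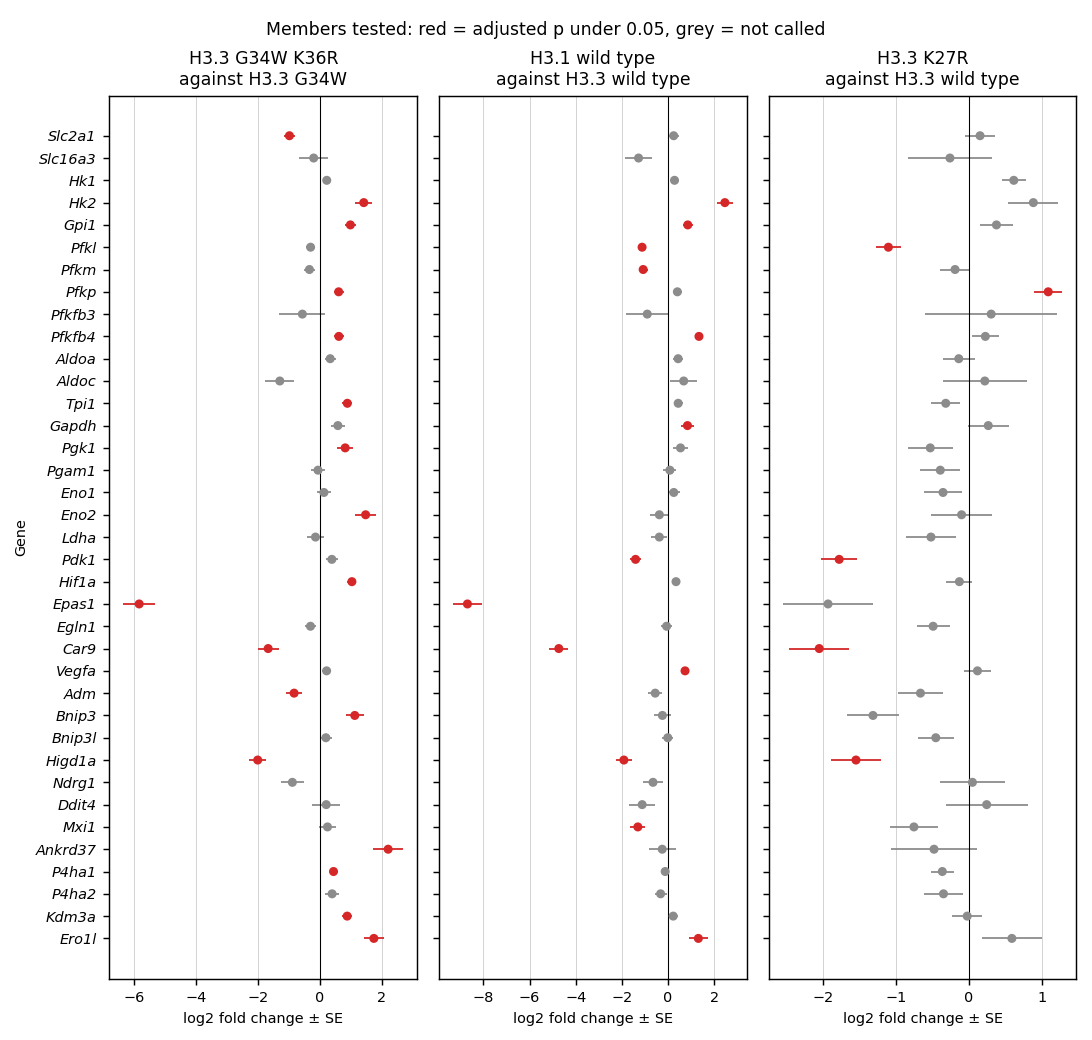
Log2 fold changes of the 37 tested members (points, bars ± 1 standard error of the limma fit) in 3 comparisons: G34W K36R against G34W, wild-type H3.1 against wild-type H3.3 and K27R against wild-type H3.3. Red points passed an adjusted p of 0.05, 18, 13 and 5 of them in that order, and the leftmost point in the first 2 panels is Epas1. The comparisons with wild-type H3.3 share its libraries.

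The unmutated transgenes differed in 13 members. In wild-type H3.1 against wild-type H3.3 35.1% of members were called, beside 33.4% of all genes, a share near the background. Of them 6 rose (16.2%, beside 16.3% of all genes), namely Hk2, Pfkfb4, Ero1l, Gpi1, Gapdh and Vegfa, and 7 fell (18.9%, beside 17.0%), namely Epas1, Car9, Higd1a, Pdk1, Mxi1, Pfkl and Pfkm. Enzymes of the same pathway therefore went both ways, Hk2 and Gpi1 up and Pfkl and Pfkm down. With close pairs as 1 sample Epas1, Car9 and Hk2 were called, beside 4.9% of all genes, and the same 3 with only these 2 groups in the fit. The count was 11 to 15 without 1 library, and 11 of the 13 were called without each library in turn, Gapdh and Ero1l being the exceptions (adjusted p up to 0.123 and 0.0946 without 1 library of wild-type H3.1, K27R or G34W K27R, and for Gapdh of G34R or G34W K36R). The epithelial list summed to 65.2 and 58.6 in wild-type H3.1 against 937 and 973 in wild-type H3.3. The endothelial list summed to 159 and 105 against 912 and 884, and the chondrocyte list to 16584 and 12975 against 59230.4 and 59420.4, and their part was not tested.

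K27R alone gave 5 calls. In K27R against wild-type H3.3 Pfkp rose, and Pdk1, Pfkl, Car9 and Higd1a fell (13.5% of members, beside 2.75% of all genes). In direction, 1 of 37 rose beside 1.85% of all genes and 4 of 37 fell beside 0.908%. The median log2 fold change of the members was -0.26. No member was called with close pairs as 1 sample, and neither was any other gene (0.0% of all). The count was 1 without either K27R library, when Pdk1 remained, 3 (Pdk1, Pfkl and Pfkp, with Car9 and Higd1a at an adjusted p of up to 0.158 and 0.194) without either library of G34R, G34W K27R or G34W K36R, 8 when both wild-type libraries entered as samples of their own, and 30 with only these 2 groups in the fit. In that last fit the spread came only from the 2 K27R libraries. The share of all genes called is not given for these alternative fits other than with close pairs as 1 sample. The chondrocyte list summed to 26689 and 24251 in K27R against 59230.4 and 59420.4 in wild-type H3.3 and the endothelial list to 2504 and 2513 against 912 and 884, and the part of these lists was not tested.

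On the K27R tail G34W was followed by 9 calls. In G34W K27R against K27R, Adm and P4ha1 rose and Pfkp, Ankrd37, Aldoc, Slc16a3, Car9, Tpi1 and Hif1a fell (24.3% of members, beside 26.2% of all genes). By direction, 2 of 37 rose beside 11.7% of all genes and 7 of 37 fell beside 14.5%. Pfkp, at 1169.6 and 1279 against 5625 and 5315, had log2 fold change -2.16 ± 0.16, adjusted p = 3.1e-05. Aldoc rests on 4 reads in the 2 G34W K27R libraries and 20 in the 2 of K27R, a ratio of 5.54 with an exact 95% interval of 1.85 to 22.3 that covers counting error only. Without either of its own G34W K27R or K27R libraries the count was 4 or 5, and it was 16 without either H3.1 G34W library, 21 without either G34W library and 31 with only these 2 groups in the fit. Adm, Ankrd37, Pfkp and P4ha1 were called without each library in turn, and with close pairs as 1 sample none was (0.0% of all genes). For the other alternative fits of this comparison the share of all genes called is not given. The adipocyte list moved with this comparison, at 12779.9 and 12689.9 in G34W K27R against 2228 and 2214 in K27R. Lower in G34W K27R were the sums of the epithelial list (22.2 and 27.2 against 865 and 867), the muscle list (76.5 and 92.4 against 395 and 385), the endothelial list (1403 and 1429 against 2504 and 2513) and the chondrocyte list (13679 and 14690.1 against 26689 and 24251). The adipocyte markers Adipoq and Plin1 were at 1358 and 1288 and 453 and 501 against 10.6 and 9.97 and 0 and 0, and the part of these lists in the calls was not tested.

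Whether the G34W difference was the same on a K27R tail and on an unchanged one was tested as an interaction: the difference G34W K27R minus K27R less the difference G34W minus wild-type H3.3. It was called for 5 members (13.5%), beside 7.95% of all genes, 2 upward (beside 2.72%) and 3 downward (beside 5.22%). Adm was at 1421 and 995 in G34W against 1764 and 1738 in wild type, but at 6036 and 6245 against 1135 and 1072 with K27R, and P4ha1 likewise was below wild type in G34W and above K27R in G34W K27R (interaction 3.03 ± 0.39, adjusted p = 0.00178, and 1.10 ± 0.20, adjusted p = 0.0087). Pfkp had 2032 and 2832 in G34W, around its wild-type values of 2561 and 2571, and values under all others on the K27R tail (interaction -2.06 ± 0.25, adjusted p = 0.00136). Slc2a1 was above wild type in G34W, at 2734 and 3687 against 2159.6 and 2064, and below K27R in G34W K27R, at 1725 and 1725 against 2397 and 2302 (interaction -1.03 ± 0.27, adjusted p = 0.0466), a call lost under TMM rescaling, without a filter on low values and with only the compared groups. Aldoc was the fifth (interaction -2.94 ± 0.75, adjusted p = 0.0401), a call lost with a pseudocount of 5 and under quantile normalization. Adm, Pfkp and P4ha1 were called without each library in turn, while Aldoc and Slc2a1 reached an adjusted p of 0.125 and 0.15 without 1 of 7 and 1 of 10 libraries. None of the 5 was called with close pairs as 1 sample. The count was 11 without G34W replicate 1, 8 without its replicate 2, and 3 without either library of G34R, G34W K27R or K27R. For these counts the share of all genes called is not given.

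**Figure D4:**
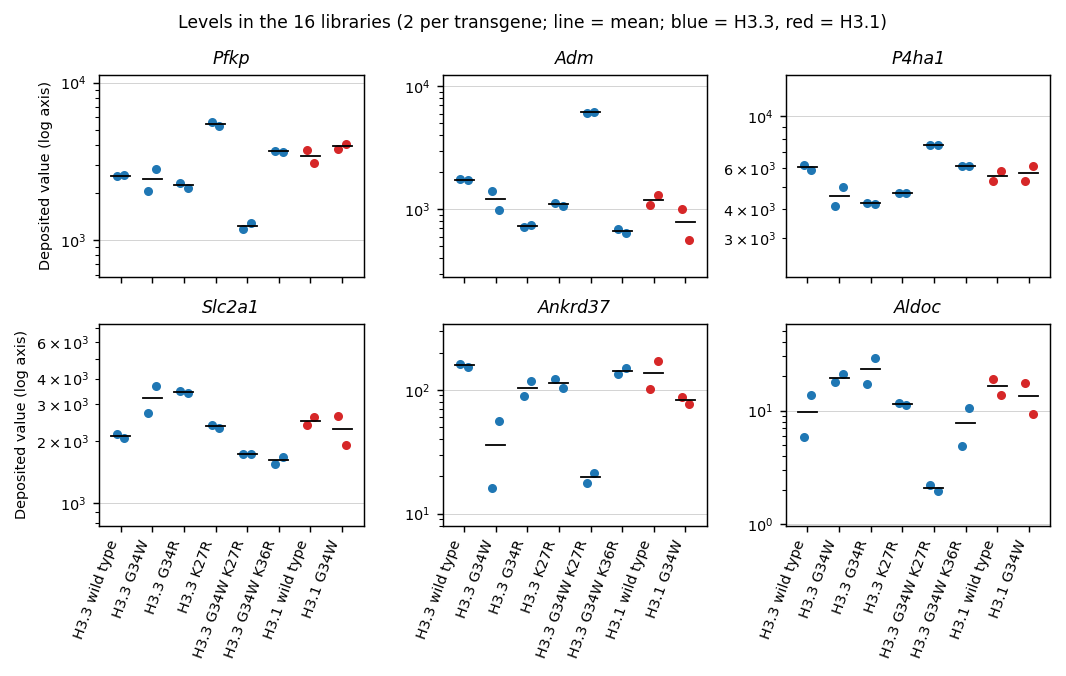
Values of Pfkp, Adm, P4ha1, Slc2a1, Ankrd37 and Aldoc in each library (points, median-normalised expected counts, log axis) by transgene, H3.3 groups in blue and H3.1 groups in red, with a bar at the mean of the 2 libraries. Adm and P4ha1 peak in G34W K27R, where Pfkp, highest in K27R, has its lowest values.

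Neither single G34 substitution gave a called member in the fit of all 8 groups on the deposited scale with the wild-type pair averaged. In G34W against wild-type H3.3 limma called 0 of 37 members (beside 1.18% of all genes). At an unadjusted p under 0.05 there were 13 of 37 members, beside 1678 of 12670 genes. Of the 37 fold changes 29 were below 0 (median -0.45, all genes 0.00). The 3 widest changes without overlap were all downward: Ankrd37 (log2 fold change -2.35 ± 0.59, adjusted p = 0.1), Car9 (log2 fold change -1.54 ± 0.41, adjusted p = 0.12) and Bnip3 (log2 fold change -1.29 ± 0.36, adjusted p = 0.133). In G34R against wild-type H3.3 limma also called 0 (beside 2.72%). At an unadjusted p under 0.05 were 10 members, beside 1894 of 12670 genes. Again 29 of 37 lay below 0 (median -0.34, all genes -0.01). Here the widest without overlap were Adm (log2 fold change -1.24 ± 0.30, adjusted p = 0.0639), Aldoc (log2 fold change 1.13 ± 0.58, adjusted p = 0.41) and Bnip3 (log2 fold change -1.03 ± 0.36, adjusted p = 0.191). Both comparisons use the same wild-type libraries. These counts moved with several choices. The share of all genes called under each choice is not given here, so the counts below cannot be read as particular to the members. In the fit of G34R and averaged wild type alone, the spread came only from the 2 G34R libraries. Their median absolute log2 difference over the members was 0.02. With only the compared groups in the fit 33 members were called in G34R, 6 higher and 27 lower, and quantile normalization called 2 in G34W (Car9 and Tpi1, both lower) and 1 in G34R (Adm, lower). With both wild-type libraries as samples of their own, 8 members were called in each, all 8 lower in G34W (Ankrd37, Bnip3, Car9, Gpi1, Pdk1, Pfkl, Pgk1 and Tpi1), and 3 higher (Hk1, Pfkfb4 and Slc2a1) and 5 lower (Adm, Bnip3, P4ha1, Pdk1 and Pfkl) in G34R. Leaving out replicate 1 of G34W gave 5 for G34W and 6 for G34R, leaving out its replicate 2 gave 9 and 7. Leaving out either wild-type H3.1 library gave 1 and 1, and either H3.1 G34W library 1 and 2.

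G34R against G34W compares the substitutions at the same residue. limma called 0 of 37 members, beside 0.845% of all genes, with 3 members and 935 of 12670 genes at an unadjusted p under 0.05. The widest differences without overlap were Ankrd37, at 89.5 and 118 against 15.96 and 55.8 (log2 fold change 1.74 ± 0.48, adjusted p = 0.248), Car9 (log2 fold change 0.76 ± 0.34, adjusted p = 0.663) and Adm (log2 fold change -0.69 ± 0.25, adjusted p = 0.498). Leaving out G34W replicate 1 gave a count of 1 and replicate 2 a count of 4. With G34W on H3.1 and its own wild type as control, limma called 0 of 37 members and 0.0% of all genes, with 5 members and 2015 genes at an unadjusted p under 0.05. Car9 was at 23.9 and 34.7 against 12.9 and 8.79 (log2 fold change 1.35 ± 0.34, adjusted p = 0.302), with Pfkfb3 (log2 fold change 0.69 ± 0.74, adjusted p = 0.614) and Ankrd37 (log2 fold change -0.67 ± 0.48, adjusted p = 0.453) next among the members without overlap. The count was 10 without H3.1 G34W replicate 1 and 3 without wild-type H3.1 replicate 1. The effect of G34W did not pass a test of a difference between the 2 histones for any member (0 of 37, beside 0.197% of all genes). At an unadjusted p under 0.05 were 10 members, beside 1342 of 12670 genes. The count called was 4 without G34W replicate 1 and 5 without its replicate 2. It was 6 without H3.1 G34W replicate 1 and 2 without wild-type H3.1 replicate 1. For the counts without 1 library in this paragraph the share of all genes called is not given. They cannot be read as particular to the members.

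The same comparisons were read for genes of the pathway outside the list, and no list was tested as a set. Of all tested genes 30.6% were called in G34W K36R against G34W (14.4% higher, 16.2% lower). In wild-type H3.1 against wild-type H3.3 33.4% were called (16.3% and 17.0%) and in G34W K27R against K27R 26.2% (11.7% and 14.5%). Against wild-type H3.3 1.18% were called in G34W, 2.72% in G34R and 2.75% in K27R. The counts of these lists are to be read beside those shares. Of 12 other tested glycolytic genes, Eno3, Slc16a1 and Bpgm rose both in G34W K36R against G34W and in wild-type H3.1 against wild-type H3.3, with 1 fall in each (Slc2a4 and Pgam2). Eno3, the muscle enolase, was at 434 and 370.0 in wild-type H3.3, 1609 and 1612 in G34W K36R and 4333 and 6415 in wild-type H3.1 (log2 fold change 2.41 ± 0.31, adjusted p = 4.5e-04, and 3.71 ± 0.38, adjusted p = 1.1e-04). In G34W K27R against K27R 4 of the 12 fell and none rose: Slc16a1, which carries lactate (log2 fold change -1.90 ± 0.31, adjusted p = 0.00184), the pyruvate kinase gene Pkm2 (log2 fold change -0.96 ± 0.31, adjusted p = 0.0442), Eno3 and Bpgm. Bpgm was also the 1 call in K27R, where it rose (log2 fold change 1.19 ± 0.18, adjusted p = 0.00576). Of 9 pentose phosphate genes 3 fell in G34W K27R against K27R (Prps2, Prps1 and Tkt), 3 rose in wild-type H3.1 against wild-type H3.3 (G6pdx, Rpe and Prps1) and 2 rose in G34W K36R against G34W (Rpia and Rpe).

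Of 16 HIF pathway regulators, Arnt2, an alternative partner of the HIF alpha subunits, was called most often. It was at 1115 and 1125 in wild-type H3.3, 388 and 177 in G34W, 83.0 and 97.9 in G34R, 1220.4 and 1188 in K27R, 516 and 442 in G34W K27R and 989 and 1015 in G34W K36R, and at 547 and 311 in wild-type H3.1 and 438 and 370.4 in H3.1 G34W. It fell in G34R (log2 fold change -3.62 ± 0.42, adjusted p = 0.00216), G34W (log2 fold change -2.09 ± 0.42, adjusted p = 0.049) and wild-type H3.1 (log2 fold change -1.44 ± 0.42, adjusted p = 0.0253) against wild-type H3.3, which share that control, and in G34W K27R against K27R (log2 fold change -1.33 ± 0.34, adjusted p = 0.0177), and rose in G34W K36R against G34W (log2 fold change 1.93 ± 0.34, adjusted p = 0.0028). Cited2, which competes with HIF for its coactivator, fell in G34R (1703 and 1564 against 5437 and 5445; log2 fold change -1.74 ± 0.27, adjusted p = 0.0085). The ubiquitin ligase gene Vhl rose in G34W K27R against K27R, where the regulators split 3 up and 3 down. In G34W K36R against G34W 4 rose (Arnt2, Ep300, Hsp90aa1 and Cited2) and Egln2 fell, and in wild-type H3.1 against wild-type H3.3 2 rose and 1 fell.

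Of 43 other hypoxia responsive genes, calls went both ways in every comparison with more than 2 of them. In G34W K36R against G34W 4 were up and 10 down, beside 14.4% and 16.2% of all genes. In wild-type H3.1 against wild-type H3.3 7 were up and 11 down, beside 16.3% and 17.0%. In G34W K27R against K27R 10 were up and 8 down, beside 11.7% and 14.5%. Stc1, which encodes the hormone stanniocalcin, was at 248 and 233 in wild-type H3.3 and 3.79 and 5.86 in wild-type H3.1 (log2 fold change -5.40 ± 0.54, adjusted p = 1.0e-04), and fell as well in G34W K36R against G34W (log2 fold change -2.38 ± 0.44, adjusted p = 0.00329). Edn1, the vasoconstrictor endothelin, was at 216 and 207 in wild-type H3.3, 2447 and 2782 in wild-type H3.1 and rose in both comparisons (log2 fold change 3.62 ± 0.55, adjusted p = 0.0011, and 2.58 ± 0.45, adjusted p = 0.00251). Plod2, a collagen lysyl hydroxylase, rose in G34W (log2 fold change 0.94 ± 0.18, adjusted p = 0.0404) and in G34R (log2 fold change 0.82 ± 0.18, adjusted p = 0.0387) against their shared wild type, where Ak4 fell in G34W (log2 fold change -2.83 ± 0.52, adjusted p = 0.0392). In K27R Bhlhe40 rose (log2 fold change 0.94 ± 0.13, adjusted p = 0.00467). Of 13 genes of pyruvate dehydrogenase and pyruvate entry, 4 rose and 1 fell in G34W K36R against G34W, led by Pdk4 at 5042 and 4941 against 238 and 155 (log2 fold change 4.69 ± 0.21, adjusted p = 1.2e-06), and 4 rose and 1 fell in wild-type H3.1 against wild-type H3.3. Of 16 tricarboxylic acid cycle genes, 1 rose and 5 fell in G34W K36R against G34W, including the succinate dehydrogenase subunits Sdhd and Sdhc, and 3 rose and 1 fell in wild-type H3.1 against wild-type H3.3. Pfkfb1 is on both the glycolytic and the hypoxia list.

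The medians of these lists were small beside their widest genes. In the order glycolytic genes, HIF regulators, hypoxia genes, pyruvate entry, tricarboxylic acid cycle and pentose phosphate pathway, the median log2 fold changes were -0.06, 0.30, -0.16, 0.12, -0.24 and 0.20 in G34W K36R against G34W, where all tested genes had -0.03. They were 0.46, 0.03, -0.38, 0.11, -0.01 and 0.27 in wild-type H3.1 against wild-type H3.3, with -0.02 for all genes. In G34W K27R against K27R they were -0.56, 0.17, -0.11, -0.09, -0.31 and -0.20, with 0.02 for all genes. Against wild-type H3.3, calls in the 6 lists were few: 2 lower and 1 higher in G34W (Arnt2, Ak4 and Plod2), 2 lower and 1 higher in G34R (Arnt2, Cited2 and Plod2), and 3 higher in K27R (Bpgm, Bhlhe40 and Pdk4).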

How the data were processed

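Expression values came from one table of 20325 genes in 16 libraries of C3H10T1/2 cells. The values are a signal that the authors deposited: RSEM 1.2.4 expected counts on mm9, per the submitters' processing notes, with a median normalization named in the file's own title. The aligner and annotation are not given in the sources used here. Values that came within 0.01 of a whole read were 41.7% to 47.6% of those above 0 per library, so whole counts were not recovered and no count model was run. Depth was estimated from the value of 1 read, and the floor is 3 reads, for counting error only.

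log2(value + 1) of genes with a mean of at least 10 was fitted with limma 3.58.1 in R 4.3.3 (empirical Bayes with trend, robust, statmod 1.5.0), all 8 groups in 1 fit of 15 samples (7 residual degrees of freedom), the wild-type H3.3 pair averaged. The fit was run on simulated data with independent samples and 1 spread per gene for all groups. That run could not test for an unequal spread between groups. P-values are two-sided and adjusted over 12670 genes. Members and lists were chosen with earlier results of these data known. Library values are given for the 8 widest called members of a comparison and the 3 widest without overlap where fewer than 3 were called. They are also given for 12 members always named and up to 4 called genes of each other list. As exceptions, Aldoc is given as a range and summed reads, and Pfkfb3 by library only in G34W. Alternatives were another pseudocount (5), no filter, TMM and quantile scaling, only the compared groups, close pairs as 1 sample, separate wild-type libraries, a replicate block, and each library left out. RefSeq windows are from GRCm38.p6.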

Additional observations from a re-analysis of the deposited data

Results flagged for a closer look

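For 5 members the effect of G34W on H3.3 differed between a tail with K27R and an unchanged tail by the test of that difference itself (limma, adjusted over all genes): Adm (3.03 on the log2 scale, adjusted p = 0.00178), P4ha1 (1.10, adjusted p = 0.0087), Pfkp (-2.06, adjusted p = 0.00136), Slc2a1 (-1.03, adjusted p = 0.0466) and Aldoc (-2.94, adjusted p = 0.0401). A positive value means that the gene was higher with G34W on the K27R tail than the change on the unchanged tail would give. Aldoc had 4 reads in the 2 G34W K27R libraries, and its difference passed the threshold with a pseudocount of 1 and not with 5 or under quantile normalization. The difference of Slc2a1 did not pass under TMM rescaling, without a filter on low values or with only the compared groups.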

How the results depend on the processing

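None of the 50 calls of a member in a comparison changed direction under any alternative run. Counting close pairs as 1 sample, counting wild-type libraries separately and fitting only the compared groups keep nearly the same group means. These runs could therefore hardly change a direction. Of them 42 were kept under both TMM and quantile scaling, 29 without each library in turn and 4 with close pairs counted as 1 sample. Both scalings moved the median of all genes by under 0.1. Counting close pairs as 1 sample gave 4 called members across the 8 groups, 3 for wild-type H3.1 against wild-type H3.3, 1 for G34W K36R against G34W, and 0 for K27R, for G34W K27R against K27R and for the interaction with K27R, with fewer samples and 3 residual degrees of freedom. Fitting only the compared groups gave 33 for G34R and 30 for K27R against wild type, 31 for G34W K27R against K27R, 5 for G34W K36R against G34W and 3 for wild-type H3.1 against wild-type H3.3. Counting the wild-type libraries separately gave 8 for each of G34W, G34R and K27R against wild type and 1 for the interaction with histone type. Quantile scaling gave 2 for G34W, 1 for G34R and 1 for the interaction with histone type. For these alternative counts, and those without 1 library below, the share of all genes called is given only for close pairs as 1 sample.

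Equal replicate numbers did not mark pairs: over 28 pairs of groups the correlation of same-numbered deviations was -0.265 to 0.0598, none over 0.1. The fit with the replicate block, wild-type libraries counted separately, called 6 members for G34W, 5 for G34R and 8 for K27R against wild type and 1 for the interaction with histone type, and stayed within 1.5 times elsewhere. Without 1 library the counts ranged from 0 to 9 for G34W, 0 to 7 for G34R and 1 to 7 for K27R against wild type, 4 to 21 for G34W K27R against K27R, 10 to 24 for G34W K36R against G34W, 0 to 4 for G34R against G34W, 0 to 10 for G34W on H3.1, 3 to 11 for the interaction with K27R and 0 to 6 for that with histone type. With 2 libraries a group, and values of Aldoc and Slc16a3 within 10 times the floor, small differences in these members were not detectable. Epas1, Car9 and Stc1 in wild-type H3.1 and Ankrd37 in G34W K27R also lay within 10 times the floor. The sizes of their fold changes are therefore less certain.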
